A study of Mus musculus with 6 samples.

Results

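The 42 genes described here encode the machinery that copies DNA and the enzymes that supply its nucleotides, from the origin recognition proteins to thymidine kinase. They were chosen by symbol from the 54532 genes of the deposited count table, with earlier results of these data known. Each symbol matched 1 row. All 42 had enough reads to be tested.

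DNA replication starts when the origin recognition complex, Cdc6 and Cdt1 load rings of the Mcm2 to Mcm7 helicase onto DNA before S phase. Cdc45 and the GINS complex then join the ring to form the active helicase, and polymerases alpha, delta and epsilon copy the strands it opens. Many of these genes are switched on by E2F transcription factors once cyclin-dependent kinases, that of cyclin E among them, release the factors from the retinoblastoma protein. Resting T cells keep most of the machinery low and build it up when an antigen drives them to divide, and ribonucleotide reductase, thymidylate synthase and thymidine kinase then raise the supply of deoxynucleotides.

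RNA was sequenced from splenic CD4+ T cells of C57BL/6 mice with experimental autoimmune encephalomyelitis, in which an immune attack on myelin is induced. The cells were taken in the acute phase. There were 3 libraries labelled KD, of genotype Ogtfl/wt CD4-Cre and called Ogt-KD here, and 3 control libraries of genotype wild type. The labels do not say whether each library came from its own mouse, and neither the age nor the sex of the mice is given in the labels. The Cre is driven by Cd4 regulatory sequence and is thus active in T cells, and the Ogt-KD mice keep 1 wild-type allele of Ogt, the gene for O-GlcNAc transferase. No Cre or floxed allele is named for the controls, so an effect of the Cre and an effect of Ogt cannot be told apart.

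Libraries held 18127031 to 25683453 reads in genes. Ogt itself stood at 662, 599 and 459 CPM, the read count scaled to a common TMM-adjusted library size, in Ogt-KD replicates 1, 2 and 3, against 599, 628 and 562 CPM in control replicates 1, 2 and 3, and the groups overlapped (log2 fold change -0.06, edgeR adjusted p = 0.981). The counts are per gene and can include exons that the deletion leaves in place. They also do not show which allele of Ogt a cell expressed, so a wild-type allele in the mice is not shown to be active in every cell. Cd4 was high in every library, at 739 to 903 CPM in Ogt-KD and 762 to 856 CPM in control cells. In a principal component analysis the leading axis took 44.8% of the variance. On it, replicate 3 of both groups lay at one end (38.4 and 40.7) and Ogt-KD replicates 1 and 2 at the other (-35.7 and -42.4). In bulk RNA fewer cells of a type and less RNA per cell cannot be told apart, and this holds for every value below.

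Replication genes stood higher in Ogt-KD than in control cells in most cases, but no single member passed the test. Of the 42 members, 39 had a log2 fold change above 0, against 49% of all 16075 genes tested. Their median was 0.28, against -0.005 for all genes. The edgeR quasi-likelihood test with Benjamini-Hochberg adjustment over all genes called 0 of 42 members at 0.05, where it called 0.00622% of all genes as higher and 0% as lower. At an unadjusted p under 0.05, 10 members were higher and 0 lower, while 5.04% of all genes were higher and 2.48% lower at that level. DESeq2 also called 0 members, with 0.509% of its genes called as higher. With DESeq2 12 members had an unadjusted p under 0.05, beside 3.09% of its genes as higher. This last share is over 28445 genes, which include genes with few reads, and is not on the same base as the edgeR share over 16075. In 8 members every Ogt-KD library lay above every control library, a pattern shown by 7.43% of all genes. These 8 were Cdc45, Gins1, Gins2, Prim1, Rpa2, Rrm1, Tyms and Ccne2. In 0 members every Ogt-KD library lay below every control library, beside 5.88% of all genes.

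The counts depend on single libraries. Without Ogt-KD replicate 3, 27 members had an unadjusted edgeR p under 0.05 and 32 lay apart from the controls, beside 9.59% and 20.2% of all genes. Leaving out Ogt-KD replicate 1, Ogt-KD replicate 2 or control replicate 1 left 3 members at an unadjusted p under 0.05 each time, beside 3.11%, 2.64% and 2.97% of all genes. Without control replicate 3, the groups did not overlap in 14 members, beside 10.3% of all genes. With each of the 6 libraries left out in turn, the median log2 fold change of the members ran from 0.22 to 0.38.

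**Figure D1:**
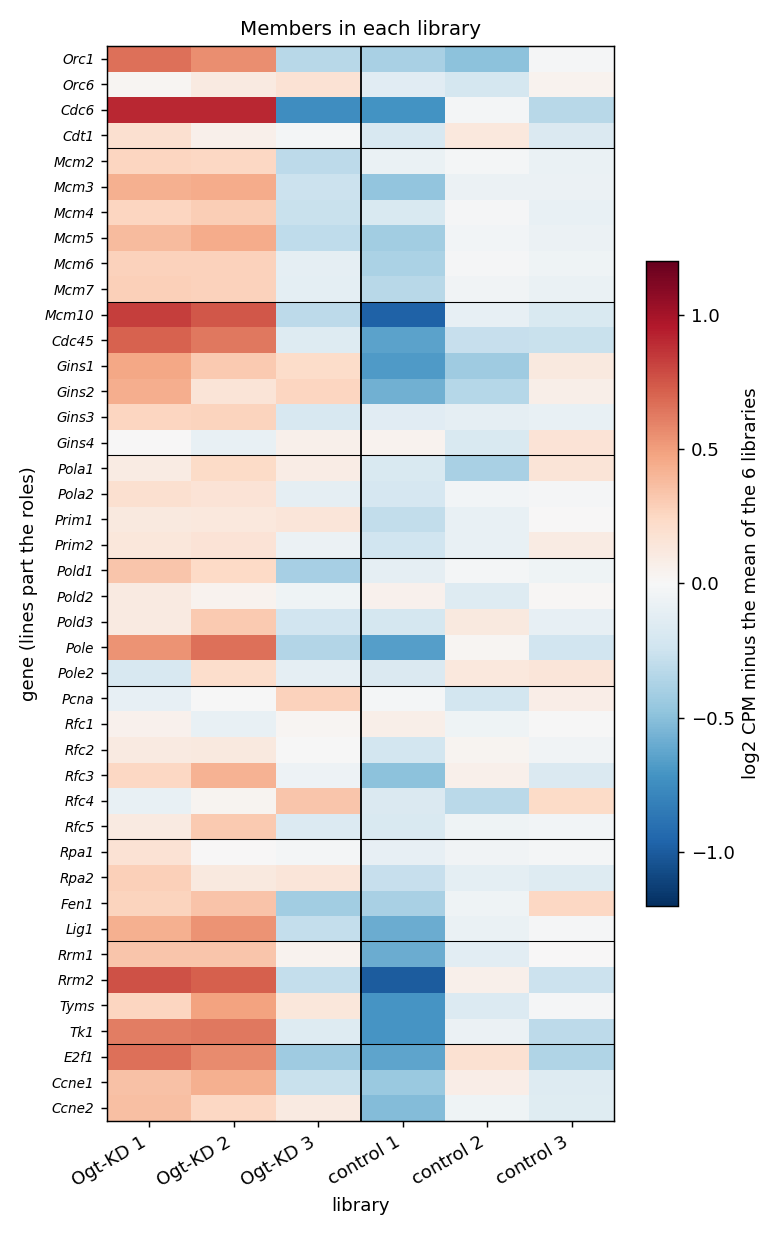
Log2 CPM of each member (rows, parted by role) in each library (columns), minus the mean of the 6 libraries. Ogt-KD replicates 1 and 2 are high for most members, control replicate 1 is low, and Ogt-KD replicate 3 resembles control replicates 2 and 3 in colour.

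The members' promoters were searched for the site letters of E2F factors, which are known to drive many of these genes. The windows, from RefSeq on GRCm38.p6, cover 250 bases before to 50 bases after each annotated start, and 34 of the 42 members had one. The letters searched were TTTGGCGC, TTTCCCGC, TTTGCCGC and TTTCGCGC on both strands, and matches could overlap. They stood in 14 of the 34 members, or 41.2%, against 704 of 27025 genes, or 2.6%. CCAAT, the box bound by NF-Y, stood on either strand in 20 of 34 members, or 58.8%, against 41.1% of all genes. The 5 stretches below show both kinds of letters in capitals, 5′ to 3′ along each gene, and end at the base before the annotated start. Mcm5 (chr8:75109309-75109508, plus strand) and Mcm6 (chr1:128359706-128359905, minus strand) each hold 2 E2F matches that overlap. Pola1 (chrX:93632156-93632355, minus strand) holds 1, while Rrm2 (chr12:24708054-24708253, plus strand) and Cdc45 (chr16:18811973-18812172, minus strand), among the members with the largest fold changes, hold CCAAT letters only.
Mcm5: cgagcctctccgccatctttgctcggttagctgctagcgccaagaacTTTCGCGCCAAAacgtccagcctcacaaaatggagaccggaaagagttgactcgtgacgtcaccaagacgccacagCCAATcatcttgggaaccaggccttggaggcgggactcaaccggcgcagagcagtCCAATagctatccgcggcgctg
Mcm6: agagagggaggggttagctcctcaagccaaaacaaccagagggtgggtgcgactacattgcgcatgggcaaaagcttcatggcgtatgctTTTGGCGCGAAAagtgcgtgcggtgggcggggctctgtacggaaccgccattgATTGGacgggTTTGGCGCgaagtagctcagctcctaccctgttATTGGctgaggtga
Pola1: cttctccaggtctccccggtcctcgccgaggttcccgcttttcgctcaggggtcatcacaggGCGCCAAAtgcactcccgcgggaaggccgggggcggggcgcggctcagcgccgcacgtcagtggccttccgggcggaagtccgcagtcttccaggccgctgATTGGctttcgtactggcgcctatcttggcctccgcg
Rrm2: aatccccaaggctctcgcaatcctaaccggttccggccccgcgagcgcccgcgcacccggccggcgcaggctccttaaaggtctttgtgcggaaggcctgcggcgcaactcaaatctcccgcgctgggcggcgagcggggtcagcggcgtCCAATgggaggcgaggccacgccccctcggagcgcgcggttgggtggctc
Cdc45: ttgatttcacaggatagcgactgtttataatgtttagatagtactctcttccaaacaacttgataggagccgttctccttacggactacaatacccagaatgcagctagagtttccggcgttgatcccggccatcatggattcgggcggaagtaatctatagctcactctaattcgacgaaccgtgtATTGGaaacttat

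In Mcm5 the overlapping pair began 153 bases before the start, and in Mcm6 it began 110 bases before it, with 1 more match 47 bases before the start. By role, E2F letters stood in 4 of 5 helicase ring genes, 3 of 4 loading genes and 3 of 4 genes of polymerases delta and epsilon. They stood in 0 of 4 nucleotide supply genes, whose fold changes had the highest median of the 9 role groups. The 14 members with the letters had a median log2 fold change of 0.30 and the 20 without them 0.23, with ranges of -0.06 to 0.86 and -0.01 to 0.87. The highest value was that of Cdc6 among those with the letters and of Mcm10 among those without. A match is a description of the letters in the window and does not show that a factor binds there. Only exact letters were searched, so a window without a match is not shown to lack a site.

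**Figure D2:**
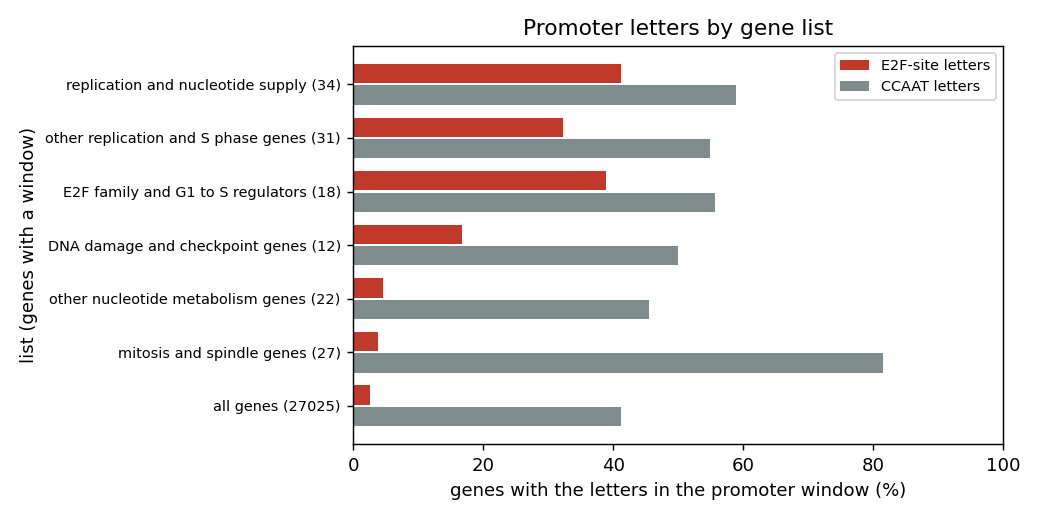
Percentage of genes whose promoter window holds E2F-site letters (red) or CCAAT letters (grey), by gene list, with the number of genes that have a window in brackets. E2F letters reach 41.2% of the replication and nucleotide supply genes and 3.7% of the mitosis genes, against 2.6% of all genes. They reach 32.3% of the other replication and S phase genes and 38.9% of the E2F family and G1 to S regulators. CCAAT letters reach 58.8% of the replication and nucleotide supply genes and 81.5% of the mitosis genes, against 41.1% of all genes.

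The loading factors differed among themselves. Orc1, the largest subunit of the origin recognition complex, was the lowest member per length, with a mean of 1.06 FPKM. It stood at 5.58, 5.17 and 2.80 CPM in Ogt-KD replicates 1, 2 and 3, against 2.69, 2.50 and 3.49 CPM in control replicates 1, 2 and 3 (log2 fold change 0.64 with SE 0.31, edgeR adjusted p = 0.690). Ogt-KD replicates 1 and 2 lay above all controls and replicate 3 among them. Cdc6, the ATPase that works with the complex to load the helicase, had 23.2, 23.2 and 7.35 CPM in the Ogt-KD libraries, against 7.54, 12.2 and 9.80 CPM in the controls. The Ogt-KD group thus held both the highest 2 values and the lowest of the 6 (0.86, SE 0.43, edgeR adjusted p = 0.705). Cdc6 varied more between libraries than any other member, with an SD of 0.75 on the log2 scale. Cdt1, its partner in loading, had 52.2, 47.7 and 45.0 CPM in Ogt-KD and 39.8, 49.9 and 40.4 CPM in control libraries (0.15, SE 0.12, edgeR adjusted p = 0.870). The small subunit gene Orc6 had a log2 fold change of 0.20.

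The 6 subunits of the helicase ring were expressed at like levels per length, from 16.3 FPKM for Mcm2 to 29.5 FPKM for Mcm6. All 6 had log2 fold changes above 0, from 0.15 to 0.43, and in each of them the groups overlapped. Mcm7 stood at 119, 118 and 89.9 CPM in Ogt-KD libraries, against 77.5, 94.9 and 92.1 CPM in controls (0.31, SE 0.14, edgeR adjusted p = 0.669). Mcm3 had 122, 124 and 76.0 CPM in Ogt-KD, against 65.3, 86.5 and 86.2 CPM in controls (0.43, SE 0.21, edgeR adjusted p = 0.686). In both genes Ogt-KD replicate 3 stood among the control libraries. Mcm2 had 135, 134 and 91.1 CPM in Ogt-KD, against 107, 111 and 107 CPM in control libraries (0.15, SE 0.16, edgeR adjusted p = 0.936), so that Ogt-KD replicate 3 was the lowest library of all. Mcm4, Mcm5 and Mcm6 had 0.21, 0.38 and 0.30. Mcm7 shares 421 bases with Ap4m1 and 64 with Cops6 on the other strand, and the strand setting of the counting is not given in the sources used here. In all, 21 of the 42 members overlap another gene, and without strand, reads shared by genes on opposite strands cannot be told apart. Among the loading genes, Orc1 shares 22409 bases with Gm12743, which has 29% as many reads, and Orc6 shares 171 bases with Vps35, which has 542%.

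Factors that turn the loaded ring into a working helicase had a median log2 fold change of 0.59, with 5 of 6 above 0. Cdc45, which forms the active helicase with the ring and GINS, stood at 22.4, 21.3 and 12.3 CPM in Ogt-KD libraries, against 8.81, 11.3 and 11.4 CPM in controls. Every Ogt-KD library was above every control, replicate 3 by a narrow margin (0.82, SE 0.25, 95% interval 0.24 to 1.41, edgeR adjusted p = 0.556). The GINS subunit gene Gins2 had 11.2, 9.23 and 9.91 CPM in Ogt-KD and 5.57, 6.52 and 8.73 CPM in control libraries (0.55, SE 0.21, edgeR adjusted p = 0.624). Another subunit, Gins1, showed the same separation with 0.63 (SE 0.24). Gins4, by contrast, had 30.7, 28.9 and 32.0 CPM in Ogt-KD and 31.5, 27.1 and 34.4 CPM in control libraries, which gave -0.02 (SE 0.12, 95% interval -0.29 to 0.26), or 0.04 with library totals as the only scaling. The subunits of 1 complex thus had unlike levels per length too, at 22.6 FPKM for Gins4, 4.14 for Gins1, 3.53 for Gins3 and 2.07 for Gins2. Mcm10, which helps to activate the helicase, had the largest log2 fold change of the 42 members at 0.87 (SE 0.36, edgeR adjusted p = 0.645). Its values were 18.6, 17.6 and 8.43 CPM in Ogt-KD and 5.34, 9.79 and 9.24 CPM in control libraries, which overlap. Gins3 had 0.24. Gins2 overlaps Gse1 by 2758 bases and Cdc45 overlaps Ufd1 by 209 bases, both on the other strand.

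Polymerase alpha and primase, which lay down the short RNA and DNA primers, had log2 fold changes within a narrow range of 0.15 to 0.26. Prim1, the catalytic primase subunit, stood at 36.1, 36.2 and 36.8 CPM in Ogt-KD libraries, against 27.0, 31.2 and 33.3 CPM in controls (0.25, SE 0.11, edgeR adjusted p = 0.652). Here Ogt-KD replicate 3 was the highest library, and the groups did not overlap. Pola1, the catalytic subunit of polymerase alpha, had 26.9, 29.4 and 26.7 CPM in Ogt-KD and 22.2, 19.2 and 27.9 CPM in control libraries (0.26, SE 0.15, edgeR adjusted p = 0.769). Prim2, the large primase subunit, had 16.1, 16.4 and 13.9 CPM in Ogt-KD, against 12.4, 13.7 and 15.6 CPM in controls (0.15, SE 0.14, edgeR adjusted p = 0.918). Control replicate 3 stood within the Ogt-KD range in both of these genes. The accessory subunit gene Pola2 had 0.16.

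The polymerases that copy the bulk of the genome had a median of 0.13. Pole, the catalytic subunit of leading-strand polymerase epsilon, had 34.5, 37.5 and 18.6 CPM in Ogt-KD libraries, against 15.0, 24.1 and 20.2 CPM in controls (0.61, SE 0.29, edgeR adjusted p = 0.685). Its partner Pole2 stood at 12.8, 16.9 and 13.5 CPM in Ogt-KD and 12.9, 15.9 and 16.1 CPM in control libraries (-0.06, SE 0.16, 95% interval -0.44 to 0.33). The difference between these 2 genes was not tested. Pold3, an accessory subunit of lagging-strand polymerase delta, stood at 47.1, 54.4 and 37.3 CPM in Ogt-KD and 38.0, 47.7 and 41.0 CPM in control libraries (0.13, SE 0.16, edgeR adjusted p = 0.946). The catalytic subunit gene Pold1 had 0.15 and Pold2 0.06.

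Pcna, the sliding clamp that holds polymerases on DNA, had the highest level per length of all members, 108 FPKM, and was chosen for description after its values were seen. It had 243, 259 and 314 CPM in Ogt-KD libraries, against 255, 223 and 275 CPM in controls (0.11, SE 0.13, edgeR adjusted p = 0.943). Unlike the helicase ring genes, it was highest in Ogt-KD replicate 3, and without that library its log2 fold change was -0.004. Among the clamp loader genes, Rfc3 had 19.2, 21.6 and 15.5 CPM in Ogt-KD and 11.5, 16.9 and 14.4 CPM in control libraries (0.39, SE 0.19, edgeR adjusted p = 0.688). Rfc2 had 64.2, 64.7 and 59.4 CPM in Ogt-KD and 51.2, 61.1 and 57.8 CPM in control libraries (0.15, SE 0.10, edgeR adjusted p = 0.818). In both the groups overlapped through Ogt-KD replicate 3 and control replicate 2. Rfc1, the large loader subunit, was the steadiest member, with 67.9, 61.9 and 66.8 CPM in Ogt-KD and 69.0, 63.6 and 65.3 CPM in control libraries (-0.01, SE 0.08, 95% interval -0.20 to 0.18). Its SD over the 6 libraries was 0.06 on the log2 scale, and its log2 fold change was 0.05 with library totals as the only scaling. Rfc4 had 0.17 and Rfc5 0.19. Rfc4 overlaps the far more abundant Eif4a2 on the other strand by 194 bases, and Rfc5 overlaps Wsb2 by 499 bases.

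Rpa2, a subunit of the complex that coats single-stranded DNA, had the smallest p of the 42 members. It stood at 44.0, 39.2 and 40.0 CPM in Ogt-KD libraries, against 29.9, 33.4 and 32.6 CPM in controls (0.36, SE 0.10, 95% interval 0.13 to 0.59, edgeR adjusted p = 0.526), with no overlap. Rpa1, the large subunit of the same complex, had 0.11 (SE 0.09). Lig1, the ligase that seals Okazaki fragments, had 74.5, 80.5 and 45.5 CPM in Ogt-KD and 36.5, 52.4 and 54.8 CPM in control libraries (0.48, SE 0.24, edgeR adjusted p = 0.710). Ogt-KD replicate 3 lay below 2 of the 3 controls. Fen1, the nuclease that trims Okazaki flaps, was low, at 6.61, 6.95 and 4.12 CPM in Ogt-KD and 4.20, 5.32 and 6.53 CPM in control libraries (0.14, SE 0.27, 95% interval -0.51 to 0.78). Fen1 overlaps Tmem258 and Gm10143 on the other strand, and its direction changed when Ogt-KD replicate 2 or control replicate 1 was left out. Lig1 shares 1439 bases with Zswim9 on the other strand.

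Nucleotide supply was the role group with the highest median log2 fold change, 0.65, and all 4 of its members lay above 0. Rrm1, the large subunit of ribonucleotide reductase, stood at 95.5, 95.6 and 78.2 CPM in Ogt-KD libraries, against 50.1, 69.3 and 76.2 CPM in controls (0.46, SE 0.17, 95% interval 0.07 to 0.86, edgeR adjusted p = 0.622). Rrm2, its small subunit, which is made mainly in S phase, had 97.1, 94.2 and 46.8 CPM in Ogt-KD and 28.6, 59.8 and 47.8 CPM in control libraries (0.80, SE 0.35, edgeR adjusted p = 0.668). The Rrm1 groups did not overlap, while for Rrm2 Ogt-KD replicate 3 stood below control replicates 2 and 3. Tyms, which makes thymidylate from deoxyuridylate, had 29.4, 34.3 and 27.1 CPM in Ogt-KD and 15.1, 22.0 and 24.4 CPM in control libraries (0.56, SE 0.19, edgeR adjusted p = 0.596). Tk1, the cytosolic thymidine kinase of the salvage route, had 55.7, 56.7 and 32.8 CPM in Ogt-KD and 22.4, 34.7 and 29.3 CPM in control libraries (0.75, SE 0.25, 95% interval 0.16 to 1.33, edgeR adjusted p = 0.583). Tyms separated the groups and Tk1 did not, since control replicate 2 exceeded Ogt-KD replicate 3. Tk1 shares 169 bases with Afmid on the other strand. Per length Rrm2 had 22.4 FPKM, against 6.99 for Rrm1, 7.37 for Tk1 and 4.14 for Tyms.

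The regulators of entry into S phase had log2 fold changes of 0.35 to 0.57. E2f1, an activating E2F factor, stood at 22.8, 21.4 and 10.7 CPM in Ogt-KD libraries, against 9.32, 16.4 and 11.2 CPM in controls (0.57, SE 0.33, edgeR adjusted p = 0.764). Ccne1, which encodes cyclin E1, had 24.5, 25.7 and 15.9 CPM in Ogt-KD and 14.1, 20.3 and 17.2 CPM in control libraries (0.35, SE 0.22, edgeR adjusted p = 0.804). Ccne2, for cyclin E2, had 11.1, 10.3 and 9.35 CPM in Ogt-KD and 6.03, 8.38 and 7.83 CPM in control libraries (0.47, SE 0.18, edgeR adjusted p = 0.624). Of these 3 genes, Ccne2 separated the groups, and it overlaps Ints8 on the other strand by 5622 bases.

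**Figure D3:**
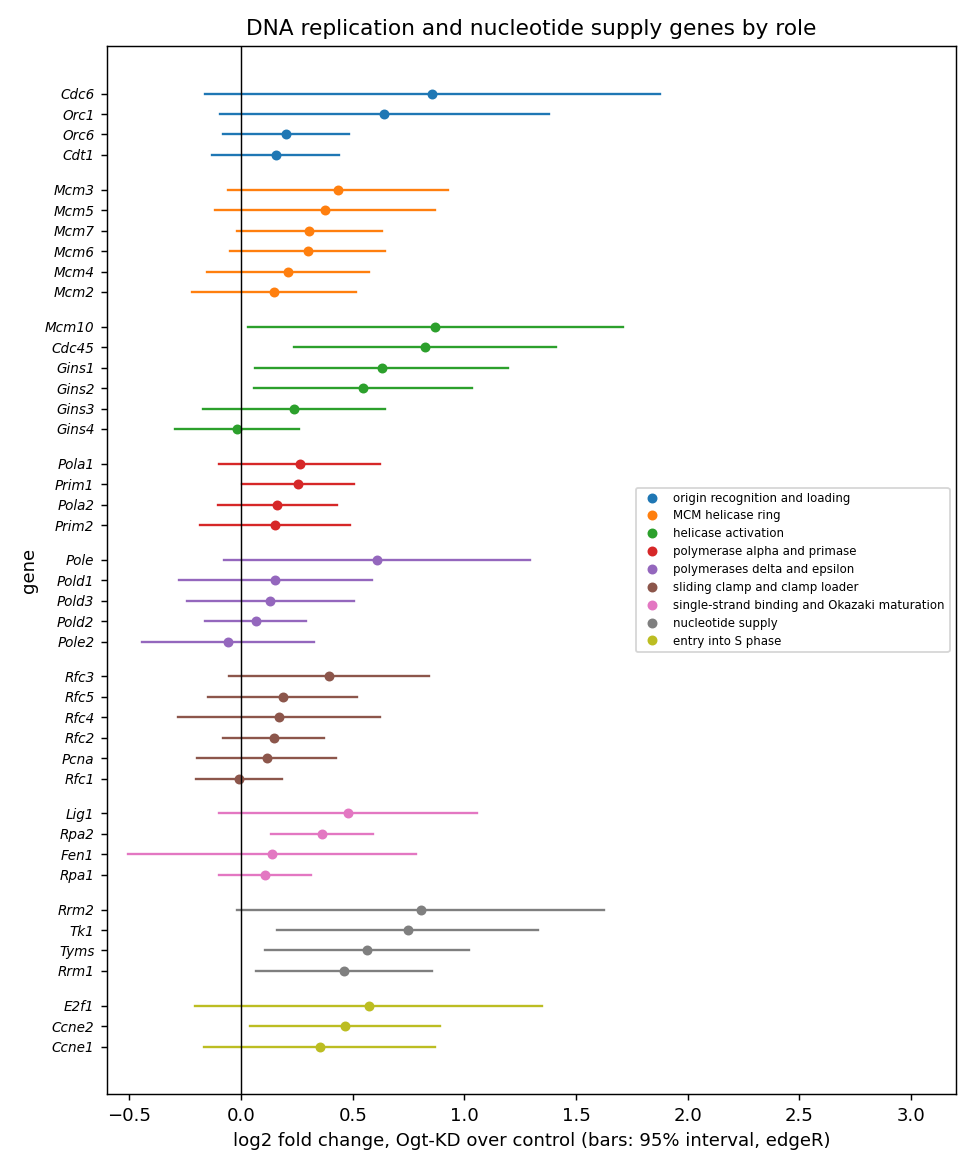
Fold change on the log2 scale, Ogt-KD over control, for each member (points), with the 95% interval of the edgeR fit (lines), grouped by role. Points lie above 0 for 39 of 42 members, and the longest intervals belong to members that vary most between libraries, such as Cdc6 and Mcm10.

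The difference stood in the libraries numbered 1 and 2. With libraries of the same number set against each other, 38 of 42 members were higher in Ogt-KD replicate 1 than in control replicate 1, with a median log2 ratio of 0.59, where 48.6% of all genes were higher. In replicate 2, 40 members were higher, with a median of 0.34, beside 50.7% of all genes. In replicate 3, 16 were higher, with a median of -0.06, beside 50.5% of all genes. All 6 helicase ring genes lay below 0 in replicate 3, from -0.23 for Mcm2 and Mcm5 to -0.04 for Mcm7, and so did all 5 genes of polymerases delta and epsilon. Nucleotide supply kept the highest median of the role groups there, 0.10, with 3 of 4 members above 0. Whether replicate 3 differed from the others was not tested, since each number holds 1 library per group. Across the 42 members the log2 ratios of replicates 1 and 2 had a Pearson correlation of 0.80, and those of replicates 1 and 3 of -0.07. These points are genes of the same libraries, not independent samples.

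**Figure D4:**
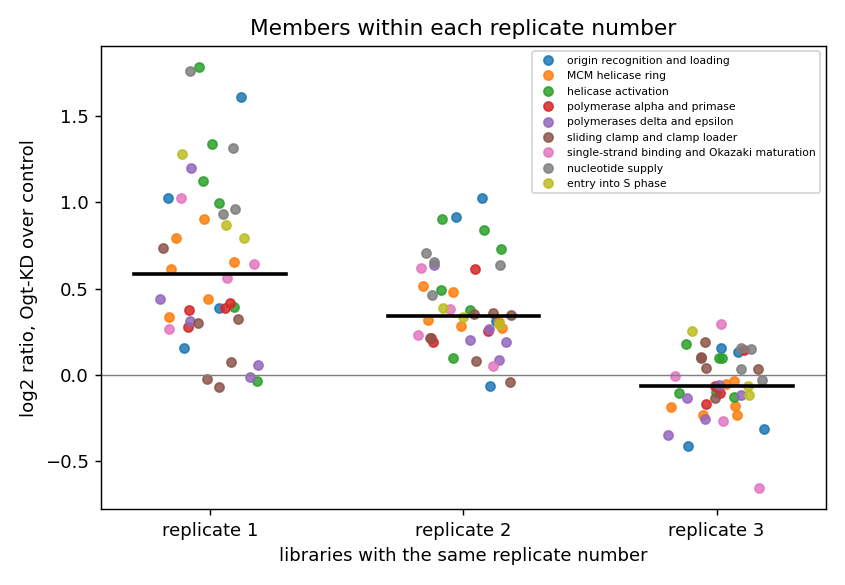
Log2 ratio of Ogt-KD over control for each member (points, coloured by role) within libraries of the same replicate number, with the median as a black line. The medians are 0.59, 0.34 and -0.06 in replicates 1, 2 and 3.

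The labels state no pairing of mice. A fit with the replicate number as a block called 0 of 42 members and 0.199% of all genes as higher. Its pairing was assumed, with only correlations in these same counts behind it. The smallest adjusted p of a member in this blocked edgeR fit was 0.194, for Tyms. Without replicate 3 of both groups, a choice made after seeing the data, the blocked edgeR fit called 7 members as higher, beside 1.13% of all genes. These were Cdc45, Cdc6, Lig1, Mcm3, Mcm5, Tk1 and Tyms, with adjusted p of 0.0399 to 0.0472. The authors' deposited table has 0 members at an adjusted p under 0.05, beside 0.311% of its genes as higher. The smallest adjusted p in the authors' deposited table, for Cdc45, is 0.148 with a log2 ratio of 0.82. DESeq2 gave Cdc45 an adjusted p of 0.149 and a log2 fold change of 0.82, so the 2 are not independent results.

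A score per library, the mean over the members of log2 CPM minus each gene's mean over the 6 libraries, summed up the pattern. It was 0.30, 0.31 and -0.11 in Ogt-KD replicates 1, 2 and 3, against -0.36, -0.09 and -0.05 in control replicates 1, 2 and 3. Control replicate 1 was the lowest library for 26 of 42 members, while Ogt-KD replicate 1 was the highest for 17 and Ogt-KD replicate 2 for 19. The members with less RNA per length had larger fold changes, with a median of 0.47 for the 21 at or below 7.98 FPKM and 0.16 for the 21 above it. Reads per member and library ran from 59 for Orc1 to 7860 for Pcna, and the SE of the log2 fold changes from 0.08 to 0.43.

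Other genes of the same pathways were read from fixed lists. Among 36 further replication and S phase genes, 28 lay above 0, with a median of 0.29, and edgeR called 0. The 3 with the smallest p were Hells, a chromatin remodeller, Topbp1, a scaffold of replication start and checkpoint signalling, and Atad5, which unloads the clamp. Hells stood at 39.4, 38.3 and 37.3 CPM in Ogt-KD and 25.9, 25.5 and 31.3 CPM in control libraries (0.48, SE 0.11, edgeR adjusted p = 0.512). Topbp1 had 147, 140 and 142 CPM in Ogt-KD, against 107, 121 and 116 CPM in controls (0.32, SE 0.08), and Atad5 had 0.69 (SE 0.19). The groups did not overlap in any of these 3 genes. Of the 36, every Ogt-KD library lay above every control library in 5 and below in 1, beside 7.43% and 5.88% of all genes. Among 26 further genes of nucleotide metabolism, including purine and pyrimidine synthesis from small precursors, 15 lay above 0 and the median was 0.05. Impdh1, an enzyme of guanine nucleotide synthesis, had -0.24 (SE 0.09), and Ctps, which makes CTP, 0.24 (SE 0.11).

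Of 24 genes for other E2F factors, their partners and regulators of the step into S phase, 18 lay above 0, with a median of 0.14. Cdkn2c, an inhibitor of Cdk4 and Cdk6, stood at 47.1, 43.5 and 35.0 CPM in Ogt-KD and 20.8, 23.9 and 25.7 CPM in control libraries (0.84, SE 0.14, edgeR adjusted p = 0.480). DESeq2 called this 1 gene of the list, with an adjusted p of 0.00283, beside 0.509% of all its genes as higher. Ccna2, for cyclin A2 of S phase and mitosis, had 0.82 (SE 0.22), and E2f3, another activating E2F factor, 0.55 (SE 0.18). All 30 mitosis genes on the list were above 0, with a median of 0.81. The edgeR test called 0 of them and DESeq2 3, beside 0.00622% and 0.509% of all their genes as higher. In 22 of the 30 every Ogt-KD library lay above every control library, beside 7.43% of all genes. Kif11, a spindle motor, had 83.4, 80.1 and 58.4 CPM in Ogt-KD and 30.1, 40.6 and 45.6 CPM in control libraries (0.93, SE 0.19, edgeR adjusted p = 0.482). Cenpf, of the kinetochore, had 0.88 and Nusap1, a spindle protein, 0.79. The mitosis score was 0.61, 0.55 and 0.03 in Ogt-KD and -0.80, -0.17 and -0.22 in control libraries, so its groups did not overlap, unlike those of the replication score. Within replicate 3 the median log2 ratio was 0.28 for the mitosis genes and -0.06 for the replication genes. The difference between the 2 lists was not tested.

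Markers of other cell types that a CD4+ T cell preparation can hold were summed in each library. Erythroid precursors divide and also use these genes. Summed over the 17 erythroid genes in the table, the level was 137 to 373 CPM in Ogt-KD and 98.2 to 154 CPM in control libraries, with 17 of 17 tested genes above 0 and 0 of the 17 without reads. A large part of the sum was Tfrc, with 73.8, 75.1 and 134 CPM in Ogt-KD and 77.0, 71.6 and 89.5 CPM in control libraries. The blocked edgeR fit called 3 of the 17 erythroid genes as higher, beside 0.199% of all genes. The erythroid score was highest in Ogt-KD replicate 3, at 1.52, the Ogt-KD library with the lowest replication score, and its values were 0.27 and 0.62 in Ogt-KD replicates 1 and 2 and -1.35, -1.08 and 0.02 in the controls. B cell markers summed to 142 to 195 CPM in Ogt-KD and 110 to 153 CPM in control libraries, with 10 of 10 genes above 0. Germinal centre and plasma cell markers summed to 228 to 349 CPM in Ogt-KD and 164 to 362 CPM in control libraries, with 5 of 7 tested genes above 0. Dendritic cell and macrophage markers summed to 1633 to 2634 CPM in Ogt-KD and 1634 to 2636 CPM in control libraries, with 9 of 14 above 0. These near-equal sums join genes of opposite direction. The dendritic cell genes Itgax, Zbtb46 and Flt3 had log2 fold changes of 1.27, 1.43 and 1.12. The MHC class II gene H2-Ab1, which is not limited to dendritic cells, had 1.04. The macrophage genes Csf1r, Spic, Adgre1 and Vcam1 had -0.71, -0.65, -0.58 and -0.46. The median of the 14 was 0.70. The blocked edgeR fit called 3 of them as higher, beside 0.199% of all genes. These were Itgax, Zbtb46 and H2-Ab1, with adjusted p of 0.0363, 0.0481 and 0.0407 in the blocked edgeR fit. Itgax stood at 85.5, 126 and 34.1 CPM in Ogt-KD and 37.9, 44.3 and 19.0 CPM in control libraries, so that Ogt-KD replicates 1 and 2 were the highest. Neutrophil markers summed to 133 to 311 CPM in Ogt-KD and 118 to 227 CPM in control libraries, with 10 of 11 above 0. CD8 T and NK cell markers summed to 95.4 to 108 CPM in Ogt-KD and 92.0 to 105 CPM in control libraries, with 6 of 8 above 0. CD4 T cell markers summed to 5281 to 5739 CPM in Ogt-KD and 5718 to 6196 CPM in control libraries, with 5 of 12 above 0. No marker in any of the 7 lists was at 0 in all libraries, and the part of these cells in the replication values was not tested.

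**Figure D5:**
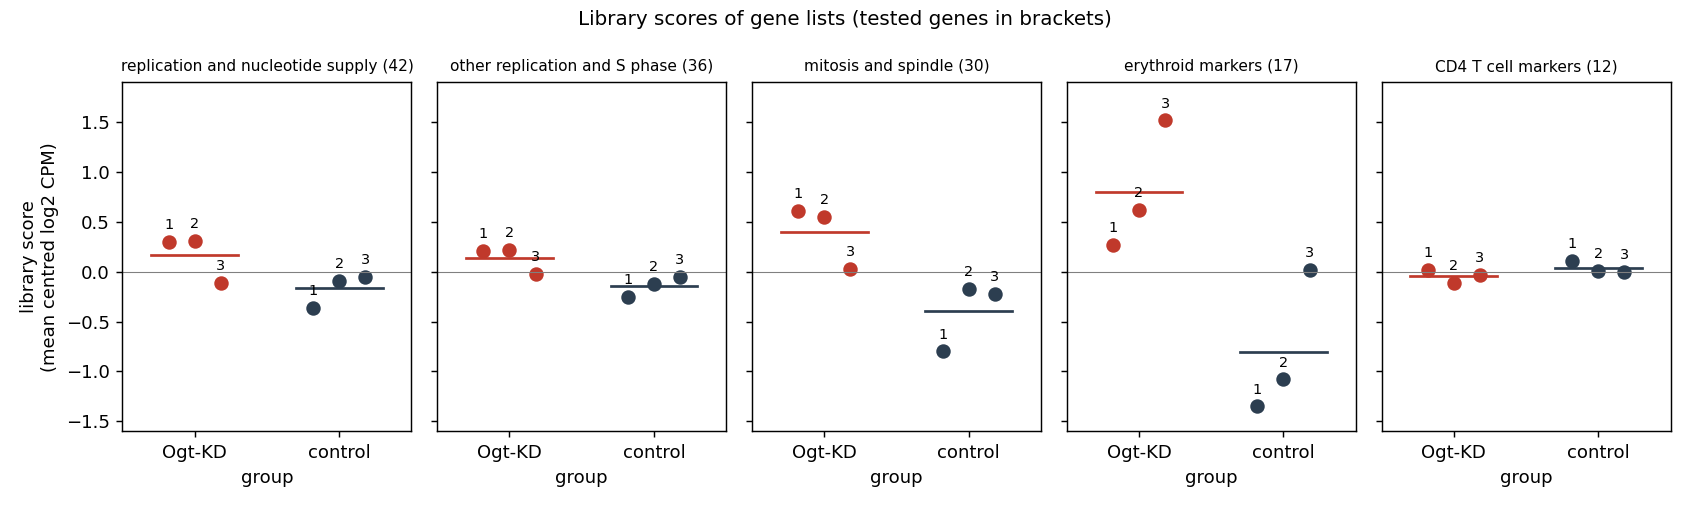
Library scores (mean log2 CPM minus the 6-library mean) of 5 gene lists in Ogt-KD and control libraries, numbered by replicate, with group means as lines. For the replication and nucleotide supply genes Ogt-KD replicate 3, at -0.11, lies among the controls, while its erythroid score of 1.52 is the highest of all libraries.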

How the data were processed

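Whole-number read counts per gene, 1 column per library, were deposited by the authors. Bowtie2 2.0.6 and TopHat2 2.0.9 appear in the submitters' processing notes, as does mm9. Neither the read counter nor its strand setting was found in the labels. The 42 members all overlap their RefSeq GRCm38.p6 positions, so coordinates are on that build. The deposited FPKM equal the count per kilobase of gene length over 1 constant per library in every gene with reads, and served only to compare levels between genes. The authors' deposited log2 fold changes and p-values come from a test the labels do not name. For the members they lie close to those of the DESeq2 fit.

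Counts of all 6 libraries were fitted with the edgeR 4.0.16 quasi-likelihood test (robust, TMM, filterByExpr, R 4.3.3), and p was adjusted over 16075 genes at a threshold of 0.05. CPM use the TMM-scaled library size, and log2 CPM for scores and ratios a prior count of 2. The fitting script was tested on simulated data. The p-values measure only the spread between these samples, which may be technical where mice or preparations are not told apart by the labels. No 2 libraries were copies, since the chi-squared per degree of freedom was at least 10.8. Counting precision varies with depth, and no molecular identifiers are named in the labels.

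No label states a pairing of mice. Deviations of same-numbered libraries from their group means had correlations over genes of 0.109, 0.346 and 0.523 in replicates 1, 2 and 3. Libraries of different numbers were not compared in this way, so these values do not establish a pairing. Same-numbered libraries were treated as paired in an alternative fit. Alternatives were RLE factors, library totals, no filter, DESeq2 1.42.0, limma-voom 3.58.1, each library left out and each replicate number left out. Values in every library are given for the 2 members with the smallest p and the 1 with the largest p in each role, and for all members of the nucleotide and S phase entry groups, while of each pathway list the 3 genes with the smallest p are named, except for some that are not reported here. Mcm10, Gins1 and Pcna were described in more detail after their values were seen. The members and all lists were chosen with earlier results of these data known.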

Additional observations from a re-analysis of the deposited data

How the results depend on the processing

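Of 18 alternatives, 17 called 0 members. The replicate block without replicate 3 of both groups, added after seeing the data, called 7, beside 1.13% of all genes as higher. The median log2 fold change of the members stayed above 0 in all 18, from 0.17 to 0.45. The replicate block with all libraries changed no member's call. Over all genes, the 1 call became 4 with no filter, 111 with DESeq2 and 47 with the replicate block. It was 1 to 2 with 1 library left out, and 0, 0 and 35 without replicate 1, 2 or 3 of both groups, or 295, 2 and 295 with the replicate block as well. Members whose groups did not overlap numbered 8 to 32 with 1 library left out, beside 9.94% to 20.2% of all genes, and 35 without replicate 3 of both groups, beside 24.6%. Direction changed in 7 members at least once and in 35 never. With library totals, Gins4 was at 0.0389 and Rfc1 at 0.0485. With 1 library left out, Fen1 ran from -0.0096 to 0.3423, Gins4 from -0.1056 to 0.0414, Pcna from -0.0038 to 0.1928, Pold3 from -0.003 to 0.263, Pole2 from -0.1901 to 0.0211 and Rfc1 from -0.0376 to 0.0293. Without replicate 1 of both groups, Fen1 was at -0.1008 and Pold1 at -0.0078, or -0.1303 and -0.0397 blocked. Leaving out replicate 2 of both groups put Fen1 at -0.0006 and Rfc1 at 0.007, or -0.0033 and 0.0074 blocked. Leaving out replicate 3 of both groups put Gins4 at 0.0262 and Pole2 at 0.0397, or 0.0287 and 0.0363 blocked. The cause was not tested. Reads in the lowest library were 59 for Orc1, 83 for Gins1 and 92 for Fen1.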

Other observations

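Of 16 DNA damage and checkpoint genes, 10 had a log2 fold change above 0, with a median of 0.07, and edgeR called 0. Chek1, the kinase that restrains S phase when replication stalls, stood at 9.26, 9.88 and 8.19 CPM in Ogt-KD replicates 1, 2 and 3, against 4.89, 5.76 and 7.49 CPM in control replicates 1, 2 and 3 (0.59, SE 0.21, edgeR adjusted p = 0.596). Its groups did not overlap. Fancd2, of the Fanconi anaemia repair pathway, had 13.7, 14.5 and 8.19 CPM in Ogt-KD and 4.16, 8.46 and 6.53 CPM in control libraries (0.92, SE 0.32). In Fancd2 Ogt-KD replicate 3 lay below control replicate 2.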
